A study of Mus musculus with 48 samples.

Results

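Mouse cortex at postnatal day 21 (P21) was profiled by RNA sequencing in mG-cKD animals given RTI and in untreated mG-cKD animals, with 3 libraries of each. These 6 libraries were chosen by their labels, out of 48 samples in the series and 15 libraries in the P21 table. Genes were analysed where the 6 libraries averaged 0.5 FPKM or more, which left 16324 of 55401 genes, 13509 of them protein coding. FPKM is a fragment count divided by gene length and by how many fragments the library mapped. The gene just inside that limit, Gm12207, averaged 0.5003 FPKM and the gene just outside it, Ccn4, averaged 0.4997.

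The P21 table held 5 groups of 3 cortex libraries, namely mG-cKD with RTI, mG-cKD, mG-cKO with RTI, mG-cKO and Ctrl. The sample titles call mG-cKD Het, mG-cKO MT and Ctrl WT, so the mG-cKD groups share a Het genotype with and without RTI. The labels mark the RTI libraries as mG-cKD-rti and the others as mG-cKD-ctrl, which are called untreated below although a vehicle may have been given. The labels spell out neither mG nor RTI, and give no dose, route, duration or vehicle for RTI, no altered gene, no promoter behind a conditional allele and no strain. The loss of the altered gene could therefore not be checked, and RTI-treated Ctrl cortex was not analysed here. Whether the libraries of a group are separate animals is not in the labels, and p-values therefore speak of the spread among these libraries, which may be technical in part. Both mG-cKD groups and mG-cKO with RTI held male and female libraries, so none of these groups came from a single animal.

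In work on retroviruses, RTI commonly stands for a reverse transcriptase inhibitor, a drug that stops the copying of RNA into DNA. Reverse transcription is the step by which retroviruses and retrotransposons make new DNA copies, with a hybrid of RNA and DNA as an intermediate. Cells can read such nucleic acids through sensors that lead to interferon, and interferon turns on antiviral genes and class I antigen presentation. C4b is the gene of complement C4, a protein laid down on surfaces that phagocytes clear, and it takes part in the removal of synapses by microglia in development. The title of the series names it beside endogenous retroviruses and hybrids of RNA and DNA.

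No gene passed the test for RTI in mG-cKD cortex. The genes with the smallest p included the small GTPase genes Arl4d and Rab37, which were higher in all 3 RTI libraries than in any untreated one, and the pair Baiap2l1 and Tdg-ps2, which were lower in all 3. Members of the immediate early, interferon-stimulated and class I lists lay mostly on the higher side, and C4b was high in 1 RTI library. The promoters of Arl4d and Nr4a1, an orphan nuclear receptor of the immediate early class, are shown because both genes were higher in every RTI library and because activity-regulated genes are often driven through the cAMP response element TGACGTCA. They run from 250 bases before the RefSeq start to 50 bases after it (GRCm38.p6), with its core TGACG, or the reverse complement, in capitals.
Arl4d promoter, chr11:101665291-101665590, plus strand: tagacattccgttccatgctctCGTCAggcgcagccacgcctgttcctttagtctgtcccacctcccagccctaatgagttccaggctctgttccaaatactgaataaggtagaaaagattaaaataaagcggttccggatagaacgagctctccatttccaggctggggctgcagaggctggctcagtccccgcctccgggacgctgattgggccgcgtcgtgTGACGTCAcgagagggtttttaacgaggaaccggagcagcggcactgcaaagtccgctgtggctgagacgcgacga
Nr4a1 promoter, chr15:101266596-101266895, plus strand: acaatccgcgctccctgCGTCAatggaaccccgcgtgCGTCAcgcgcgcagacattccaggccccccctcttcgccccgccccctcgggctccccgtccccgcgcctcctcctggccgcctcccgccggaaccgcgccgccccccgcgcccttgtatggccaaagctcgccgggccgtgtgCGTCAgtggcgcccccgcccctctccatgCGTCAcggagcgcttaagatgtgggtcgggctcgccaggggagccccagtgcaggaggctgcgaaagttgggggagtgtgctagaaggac

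On both strands and with overlaps counted, the Arl4d promoter held 3 cores, 2 of which make up the full element TGACGTCA, and the Nr4a1 promoter held 4 cores and no full element. Of 32851 mouse promoters of the same length, 20.8% held the core and 1.79% the full element. Neither promoter held the clock E-box CACGTG, present in 7.15%, or the glucocorticoid response element by its full palindrome, present in 0.00913%. These matches describe letters, not binding.

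The P21 libraries summed to 344637 to 421747 FPKM and held 13673 to 14614 genes at 1 FPKM or more. Their depth is unknown, because only FPKM was analysed and its low values did not come in whole read steps. Markers of cortical neurons, astrocytes, oligodendrocytes and microglia were present in all 6 mG-cKD libraries, with Slc17a7, a vesicular glutamate transporter, at 439 to 749 FPKM. Xist and Ddx3y marked 1 male and 2 female libraries in each mG-cKD group and in mG-cKO with RTI, with mG-cKD RTI 1 and untreated mG-cKD 2 male, whereas all untreated mG-cKO and Ctrl libraries were male. Haemoglobin RNA varied between libraries, and Hbb-bs was at 177, 99.3 and 244 FPKM with RTI and at 8.30, 195 and 16.02 FPKM without. The striatal marker Drd2 was at 8.49, 9.52 and 7.31 FPKM with RTI and at 3.92, 15.7 and 4.96 FPKM without, so untreated 2 was highest for it and untreated 1 and 3 were lowest.

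The library labelled mG-cKD RTI 1 stood apart. It held 178 genes that lay outside the range of all 14 other P21 libraries by at least 0.5 in log2 of FPKM with 1 added, 111 above and 67 below, against 6 and 22 in the other RTI libraries and 3 to 17 in the untreated mG-cKD libraries. Among other P21 libraries mG-cKO RTI 1 held 133 and mG-cKO 2 held 96. The genes were filtered on the mG-cKD libraries alone, so a gene high only in an mG-cKO or Ctrl library could be left out. Counts of mG-cKD and other libraries are thus not on an even footing. Prm1, a sperm protamine gene, was at 0, 6.75 and 6.33 FPKM in the RTI libraries and at 5.81, 3.13 and 7.26 FPKM in the untreated mG-cKD libraries, against 0, 0.270 and 0 FPKM in Ctrl. Thus RTI 1 had the Prm1 level of Ctrl, and the other 5 mG-cKD libraries did not overlap with Ctrl.

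In RTI 1, 10 of 18 genes known to respond to glucocorticoid hormones were above all other P21 libraries by at least 0.5 in log2. Over all genes tested the share was 111 of 16324. The filter of 0.5 FPKM averaged the 6 mG-cKD libraries, RTI 1 among them, so these counts lean toward genes high in RTI 1. Without RTI 1, Plin4 and Lcn2 of the 10, and Avp, Oxt and S100a9 below, would average under 0.5 FPKM in mG-cKD. The 10 genes included Plin4, a lipid droplet protein, at 10.9, 0.184 and 0.190 FPKM with RTI and 0.165, 0.0845 and 0.114 FPKM without. Sgk1, a kinase of salt and stress signalling, was at 58.1, 18.1 and 18.9 FPKM with RTI and 16.02, 22.3 and 15.5 FPKM without. Both were high in RTI 1 alone. The hypothalamic hormone gene Avp was at 11.2, 0 and 0.162 FPKM with RTI and 0.501, 0.563 and 0.188 FPKM without, and Oxt was at 7.03 FPKM in RTI 1 and at 0 in the other 5 libraries. The neutrophil gene S100a9 was at 5.35 FPKM in RTI 1 and at most 0.526 FPKM in the others. The mitochondrial tRNA gene mt-Tf was also high in it, at 59.5, 7.76 and 8.46 FPKM with RTI and 8.10, 8.36 and 8.32 FPKM without. In mG-cKO cortex mt-Tf was at 21.4, 6.20 and 5.39 FPKM with RTI and at 6.56, 6.73 and 7.57 FPKM without. Replicate 1 with RTI was thus the highest for mt-Tf in both genotypes. Values below are with all 6 libraries, and those without RTI 1 follow where leaving it out moved a difference from untreated mG-cKD or a list's median by more than 1.5 times or turned its sign. RTI 1 was singled out with its Prm1 and C4b known, so for these 2 genes values without it are a description. Slc17a7, Xist, Hbb-bs, Drd2, Plin4, Sgk1, Avp and mt-Tf were chosen after their values were seen.

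**Figure D1:**
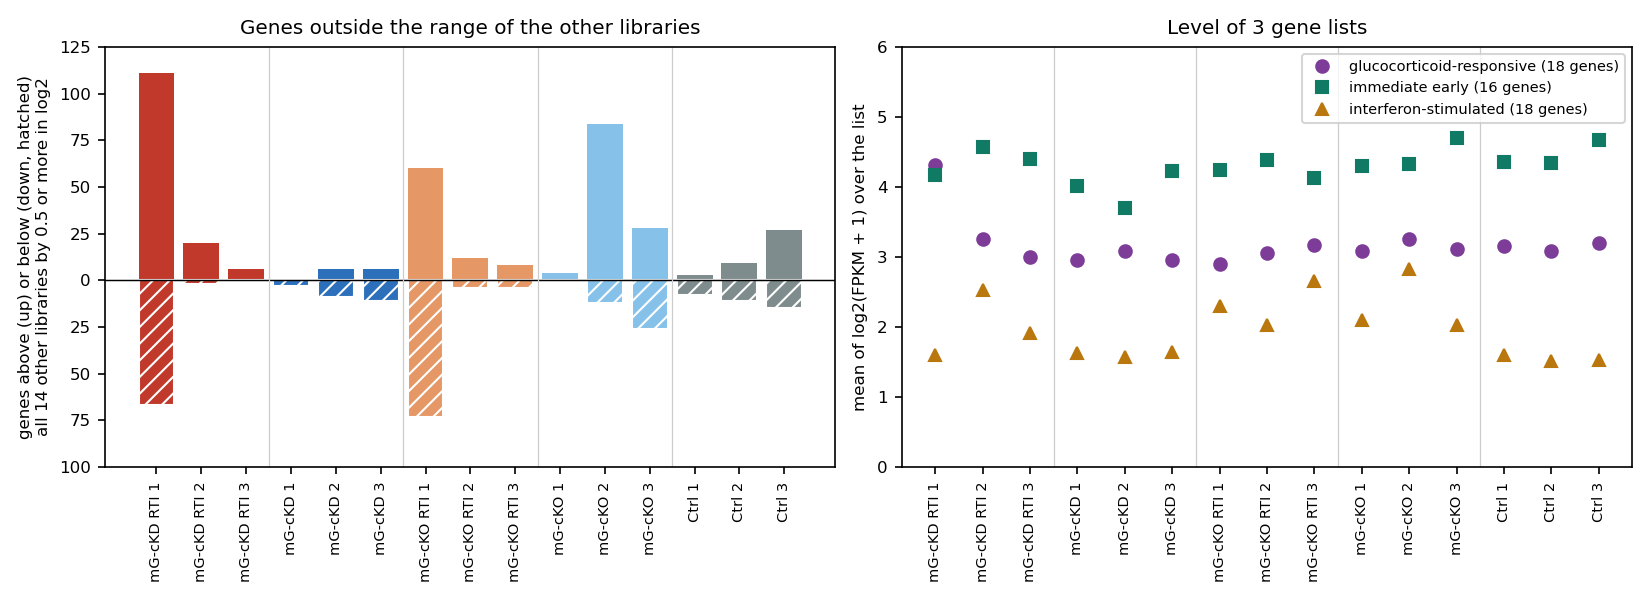
Left, number of genes above (up) or below (down, hatched) all 14 other P21 libraries by at least 0.5 in log2 of FPKM with 1 added, per library. Right, mean log2 level of 3 gene lists per library. mG-cKD RTI 1 has the largest number of such genes (178) and a glucocorticoid list level of 4.31, against 2.90 to 3.26 in the other libraries. Genes were filtered on the mG-cKD libraries alone, which favours counts above in those libraries.

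With all 6 libraries, limma called 0 of 16324 genes (0%) at a Benjamini-Hochberg adjusted p under 0.05, and the smallest adjusted p was 0.99998. At an unadjusted p under 0.05 there were 364 genes, of which 209 (1.28%) were higher and 155 (0.950%) lower with RTI. All 3 RTI libraries lay above all 3 untreated ones for 637 genes (3.90%) and below for 537 genes (3.29%). Differences are RTI minus untreated on a log2 scale after adding 1 to each FPKM, ± their limma standard error, a scale that understates changes of genes with low FPKM. The median difference over all genes was 0.014, and 5% to 95% of genes spanned -0.27 to 0.34. The 95% interval of the difference lay within -1 to 1 for 94.1% of genes and within -0.5 to 0.5 for 50.8%.

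Without RTI 1, limma again called 0 genes (0%), and 248 genes (1.52%) had an unadjusted p under 0.05. Both remaining RTI libraries lay above all untreated ones for 1207 genes (7.39%) and below for 1145 genes (7.01%). The smallest adjusted p in this fit was 0.127.

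Arl4d encodes an ARF-like GTPase that recruits an exchange factor to the plasma membrane and so affects actin and membrane traffic. Its gene lies at chromosome 11, 101665541 to 101667832, plus strand (GRCm38/mm10, GENCODE M21). Arl4d was at 30.5, 28.6 and 20.8 FPKM with RTI and at 14.2, 16.6 and 11.9 FPKM without, and at 25.3, 17.5 and 25.8 FPKM in Ctrl. The lowest RTI library was above the highest untreated one, and the RTI libraries overlapped with Ctrl. The means were 26.6 ± 5.17 with RTI and 14.2 ± 2.39 without (SD, n = 3 each), a ratio of 1.87. The log2 difference was 0.85 ± 0.19, with an unadjusted p of 0.00056, and 0.75 ± 0.21 without RTI 1.

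Rab37 encodes a Rab GTPase of secretory granules and lies at chromosome 11, 115091431 to 115162236, plus strand. It was at 1.55, 0.867 and 1.001 FPKM with RTI, at 0.377, 0.362 and 0.411 FPKM without and at 0.566, 0.712 and 0.618 FPKM in Ctrl. Every RTI library was above every untreated and every Ctrl library, so the order was RTI, Ctrl and then untreated mG-cKD, with no overlap between neighbours. The log2 difference of RTI from untreated was 0.62 ± 0.13 (unadjusted p = 0.00026), the smallest p of all genes, and 0.48 ± 0.12 without RTI 1. In mG-cKO cortex Rab37 was at 0.513, 0.218 and 0.328 FPKM with RTI and at 0.161, 0.146 and 0.186 FPKM without, again with no overlap. Of the 14 ARF-like and Rab GTPase genes tested, Arl4d and Rab37 were the 2 with an unadjusted p under 0.05, and the median of the list was 0.0065, or 0.015 without RTI 1. Over all genes 1.28% were higher at that p. The list was drawn from the families of Arl4d and Rab37, so their place in it says nothing of the families. Both genes were named for this comparison with earlier results of these data known, so their values describe these libraries. With 3 libraries against 3, an exact two-sided permutation test cannot give less than p = 0.1, the value it gave for Arl4d and Rab37.

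Myl1, a myosin light chain of fast muscle, was at 1.022, 2.01 and 2.26 FPKM with RTI and at 0.306, 0.371 and 0.585 FPKM without, and at 0.195, 0.226 and 0.664 FPKM in Ctrl. Its difference was 0.94 ± 0.22, and 1.15 ± 0.21 without RTI 1, and all RTI libraries were above all untreated and all Ctrl libraries. The receptor genes Glp2r and Mc4r, for glucagon-like peptide 2 and for melanocortins, had low levels. Glp2r was at 2.02, 1.47 and 1.23 FPKM with RTI and at 0.787, 0.565 and 0.644 FPKM without, a difference of 0.62 ± 0.17. Mc4r was at 0.804, 0.949 and 0.845 FPKM with RTI and at 0.486, 0.411 and 0.434 FPKM without, a difference of 0.37 ± 0.10. In both, the groups did not overlap.

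Clk1, a kinase that phosphorylates splicing factors, was at 51.8, 41.7 and 46.0 FPKM with RTI and at 35.4, 28.9 and 34.01 FPKM without, a difference of 0.49 ± 0.14. Scube1, a secreted protein with EGF-like repeats, was at 6.504, 11.03 and 11.02 FPKM with RTI and at 15.8, 16.5 and 19.9 FPKM without, a difference of -0.84 ± 0.22. The RTI libraries were all higher for Clk1 and all lower for Scube1. Scube1 was also lower with RTI in mG-cKO cortex, at 9.89, 12.4 and 11.6 FPKM with RTI and 15.2, 13.1 and 22.9 FPKM without, with no overlap between the groups. The odorant receptor gene Olfr464 was at 0, 0.251 and 0.288 FPKM with RTI and at 0.878, 0.634 and 0.984 FPKM without, a difference of -0.64 ± 0.14. It was at 0.0882, 0.120 and 0.166 FPKM with RTI and at 0.793, 1.01 and 1.024 FPKM without in mG-cKO cortex, a difference of -0.79 ± 0.14, so RTI libraries of both genotypes were below the untreated ones. Mir6972, a microRNA locus on chromosome 17, was at 1.04, 0.454 and 0.563 FPKM with RTI and at 2.19, 1.86 and 1.77 FPKM without, a difference of -0.82 ± 0.19.

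Baiap2l1 and Tdg-ps2 had the most negative differences among the 12 genes with the smallest p. Baiap2l1 encodes an adaptor that links membranes to actin (chromosome 5, 144264526 to 144358112, minus strand). It was at 0.291, 0.201 and 0.289 FPKM with RTI and at 7.56, 7.31 and 11.2 FPKM without, and at 5.63, 6.34 and 7.99 FPKM in Ctrl. It was at 0.0468, 0.402 and 0.203 FPKM in mG-cKO with RTI and at 0.197, 19.6 and 0.219 FPKM in untreated mG-cKO cortex. Its values thus took a low level, at or under 0.402 FPKM, in all 6 RTI libraries and in 2 of 3 untreated mG-cKO libraries, and a level of 5.63 FPKM or more in the other 7 libraries.

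The log2 difference of Baiap2l1 in mG-cKD was -2.92 ± 0.80 (unadjusted p = 0.0031) and -2.94 ± 0.93 without RTI 1. In a fit of the 6 mG-cKD libraries alone, which leaves out the spread within untreated mG-cKO, it passed with an adjusted p of 9.2e-04 in limma. Its gene lies within the annotated span of Bri3, which runs on the other strand, and whether counting used the strand is not given in the sources used here. Bri3, chosen after its values were seen, was at 19.9, 21.6 and 20.1 FPKM with RTI and at 18.9, 25.03 and 38.4 FPKM without, and the groups overlapped.

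Tdg-ps2 is a processed pseudogene of Tdg, which encodes thymine DNA glycosylase (chromosome 10, 42054113 to 42055306, minus strand). It was at 0.885, 1.07 and 1.28 FPKM with RTI and at 7.42, 6.47 and 6.20 FPKM without, and at 1.62, 7.12 and 0.981 FPKM in Ctrl. It was at 0.610, 1.72 and 1.41 FPKM in mG-cKO with RTI and at 7.18, 1.62 and 6.69 FPKM in untreated mG-cKO cortex. All 6 RTI libraries were at or under 1.72 FPKM, and so were 1 untreated mG-cKO and 2 Ctrl libraries, while the other 6 libraries were at 6.20 FPKM or more. The difference in mG-cKD was -1.89 ± 0.47, and the adjusted p with the 6 mG-cKD libraries alone was 0.0035 in limma. Tdg itself, chosen after its values were seen, was at 11.6, 15.1 and 16.8 FPKM with RTI and at 10.7, 8.9997 and 8.52 FPKM without. Reads of a gene and its near copy are hard to assign, so the separate values of Tdg-ps2 and Tdg are uncertain.

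**Figure D2:**
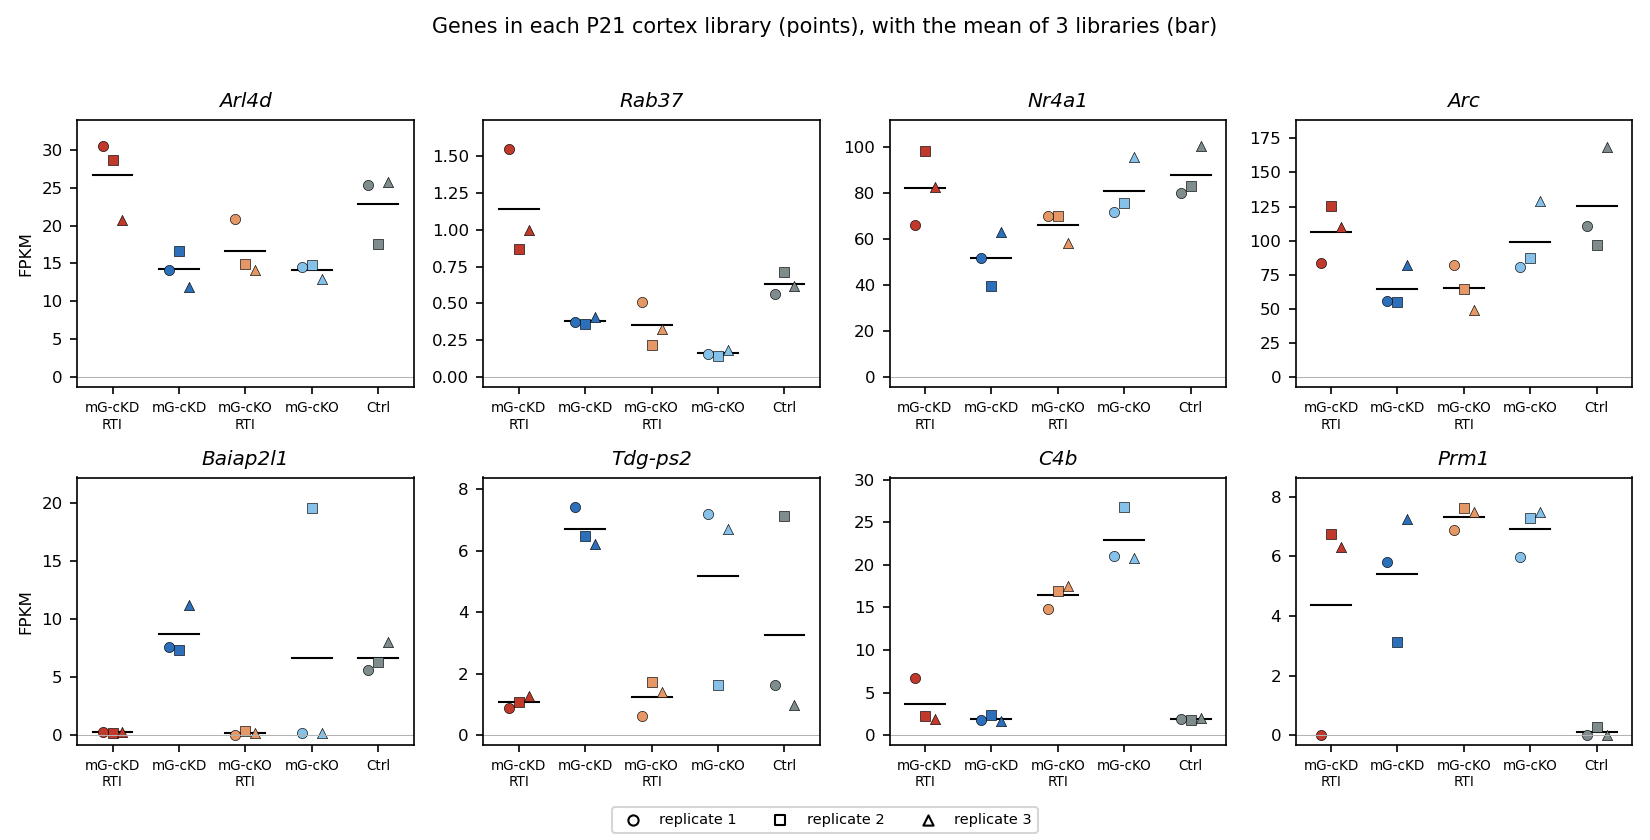
FPKM of 8 genes in the 15 P21 libraries, by group, with each point a library, its shape the replicate number and the bar the mean of 3. Arl4d, Rab37, Nr4a1 and Arc are higher in all 3 mG-cKD RTI libraries than in the untreated mG-cKD libraries, Baiap2l1 and Tdg-ps2 are lower, and RTI 1 is the mG-cKD library with Prm1 at 0 and C4b at 6.75 FPKM.

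Immediate early genes, which neurons switch on within minutes of activity, were mostly on the higher side with RTI. Of the 16 tested, 0 were called, 15 had a positive difference, 5 had an unadjusted p under 0.05 and 7 had all RTI libraries above all untreated ones. The median of the list was 0.44, and 0.51 without RTI 1, against 0.014 and 0.0022 over all genes. Nr4a1 (chromosome 15, 101254269 to 101274795, plus strand) was at 66.0, 98.3 and 82.7 FPKM with RTI and at 51.9, 39.6 and 63.1 FPKM without, and at 80.1, 83.1 and 100.5 FPKM in Ctrl. The GENCODE gene begins upstream of the RefSeq start shown above. The groups of mG-cKD did not overlap, and RTI 2 and 3 lay within the range of Ctrl with RTI 1 below it. The difference was 0.67 ± 0.19 (unadjusted p = 0.0032) and 0.82 ± 0.20 without RTI 1.

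Arc, whose protein descends from a retrotransposon and forms capsids that carry RNA between neurons, was at 84.0, 125 and 109.7 FPKM with RTI and at 56.0, 54.9 and 82.2 FPKM without, and at 111, 96.7 and 169 FPKM in Ctrl. Its difference was 0.72 ± 0.26, and all RTI libraries were above all untreated ones. Egr2, a zinc finger factor, was at 5.20, 9.88 and 7.96 FPKM with RTI and at 4.82, 3.70 and 4.67 FPKM without, a difference of 0.66 ± 0.22, or 0.88 ± 0.22 without RTI 1. Fosb, a subunit of the AP-1 factor, was at 8.96, 6.88 and 6.81 FPKM with RTI and at 4.36, 4.12 and 5.89 FPKM without, a difference of 0.57 ± 0.19. Bdnf, a secreted growth factor chosen after its values were seen, was the 1 member with a negative difference, at -0.12 ± 0.15, or -0.014 without RTI 1. These counts stand beside 3.90% of all genes with every RTI library above, and 1.28% higher at an unadjusted p under 0.05.

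The comparisons with Ctrl share libraries with the comparison above, so their values are set side by side and give no separate evidence. For Arc, RTI-treated mG-cKD minus Ctrl was -0.21 ± 0.26 and untreated mG-cKD minus Ctrl was -0.93 ± 0.26. For Nr4a1 these were -0.11 ± 0.19 and -0.78 ± 0.19, for Egr2 -0.056 ± 0.22 and -0.71 ± 0.22, and for Arl4d 0.21 ± 0.19 and -0.64 ± 0.19. In limma 0 genes (0%) passed for RTI-treated mG-cKD against Ctrl, with 640 (3.92%) at an unadjusted p under 0.05. For untreated mG-cKD against Ctrl 0 genes (0%) passed, with 230 (1.41%) at an unadjusted p under 0.05.

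In mG-cKO cortex Arc, Nr4a1, Egr2 and Fosb had negative differences with RTI. Arc was at 81.9, 64.3 and 49.5 FPKM with RTI and at 80.5, 87.3 and 129 FPKM without in mG-cKO, a difference of -0.59 ± 0.26, and the groups overlapped. The difference between the RTI effects, mG-cKD minus mG-cKO, was 1.31 ± 0.37 for Arc (unadjusted p = 0.0029), 0.96 ± 0.27 for Nr4a1 (0.003), 0.96 ± 0.31 for Egr2 (0.0087) and 0.90 ± 0.27 for Fosb (0.0049). Of the 16 immediate early genes 6 had an unadjusted p under 0.05 for this difference. Across all genes limma called 0 (0%) for the difference of the RTI effects, and 237 (1.45%) had an unadjusted p under 0.05. The mG-cKO side of this difference sets 1 male and 2 female RTI libraries against 3 untreated males, and with sex as a term 0 genes were called and 417 had an unadjusted p under 0.05. Untreated replicate 3 of mG-cKD, mG-cKO and Ctrl had the highest Arc and Nr4a1 of its group. These libraries also had 19.2% to 20.2% of their low FPKM values at whole read steps, against 15.4% to 16.6% in the other 12, and the part of that in these values was not tested.

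**Figure D3:**
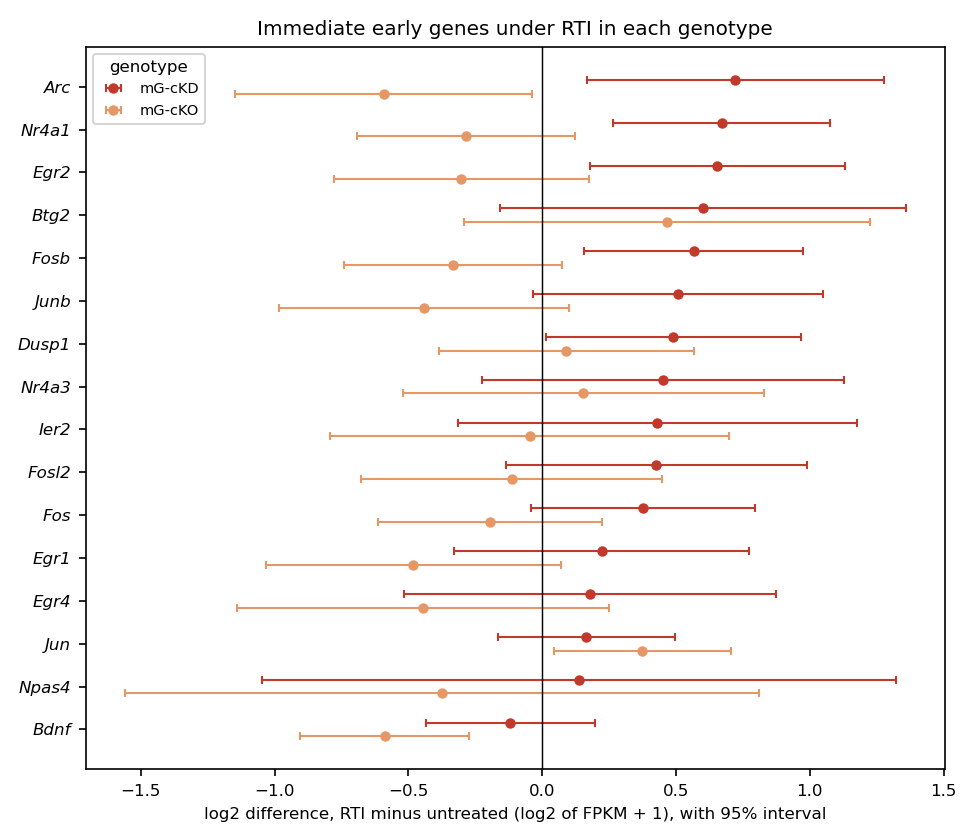
Log2 difference of RTI minus untreated, with its 95% interval from limma, for the 16 immediate early genes in mG-cKD (dark) and mG-cKO (light) cortex. In mG-cKD 15 of 16 points lie above 0, and Arc, at 0.72 in mG-cKD and -0.59 in mG-cKO, is the farthest apart.

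The other genes with the smallest p for the difference of the RTI effects were Gm20634, Gm28035, Arid5a and H2-Q4. Gm20634, a transcript without a known role, was at 1.28, 1.27 and 1.40 FPKM with RTI and at 1.05, 1.55 and 2.03 FPKM without in mG-cKD, where the groups overlapped. In mG-cKO it was at 0.0735, 0.486 and 0.393 FPKM with RTI and at 2.37, 2.23 and 2.37 FPKM without, which made it the 1 gene (0.00613%) called for RTI in mG-cKO. Its difference of the RTI effects was 1.23 ± 0.22. Arid5a, an RNA-binding protein that stabilizes inflammatory messages, was at 4.43, 4.87 and 4.19 FPKM with RTI and at 2.63, 3.99 and 2.69 FPKM without in mG-cKD, and at 3.29, 3.36 and 3.50 FPKM with RTI and 4.03, 6.01 and 5.501 FPKM without in mG-cKO. All RTI libraries were above all untreated ones in mG-cKD and below in mG-cKO, a difference of the effects of 0.92 ± 0.24 (unadjusted p = 0.0016). H2-Q4, a class I gene of the Qa region, was at 2.15, 4.21 and 1.079 FPKM with RTI and 0.999, 1.14 and 0.567 FPKM without in mG-cKD, and at 2.36, 1.32 and 1.5 FPKM with RTI and 4.04, 2.32 and 3.93 FPKM without in mG-cKO. Its difference of the effects was 1.48 ± 0.39, and that of Gm28035 was 1.32 ± 0.32.

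Clock genes have a transcription loop of activators and repressors that runs over the day. Of 16 tested, 0 were called, 4 had an unadjusted p under 0.05 and were higher with RTI, 6 had all RTI libraries above all untreated ones, and 1 had all below. Over all genes these shares were 1.28% higher by p, 3.90% above and 3.29% below. The median was 0.29, and 0.21 without RTI 1. The repressor gene Cry1 was at 5.04, 4.89 and 5.70 FPKM with RTI and at 3.43, 3.93 and 2.85 FPKM without, a difference of 0.50 ± 0.15 with no overlap. Per1, also a repressor, was at 32.4, 33.2 and 29.1 FPKM with RTI and at 17.7, 28.3 and 20.9 FPKM without, a difference of 0.51 ± 0.19, and it also belongs to the glucocorticoid list. The activator gene Arntl, chosen after its values were seen, was at 9.65, 8.59 and 8.47 FPKM with RTI and at 12.1, 8.75 and 13.2 FPKM without, a difference of -0.30 ± 0.16, and the groups overlapped in 1 library. The labels used here give no hour of collection.

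The level of the glucocorticoid list depended on RTI 1. All 18 tested genes had positive differences, with a median of 0.50, and without RTI 1 the median was 0.086, with 14 positive. Plin4 and Lcn2 of this list passed the filter only through RTI 1. Tsc22d3, which mediates anti-inflammatory effects of the hormone, was at 53.5, 43.98 and 34.01 FPKM with RTI and at 27.7, 32.6 and 20.9 FPKM without, and the groups did not overlap. Its difference was 0.67 ± 0.22, and 0.52 ± 0.23 without RTI 1. Ddit4, an inhibitor of mTOR signalling, was at 55.1, 35.2 and 31.6 FPKM with RTI and at 20.4, 33.5 and 12.2 FPKM without, where untreated 2 overlapped with the RTI group. Its difference was 0.92 ± 0.30, and 0.69 ± 0.31 without RTI 1. Gadd45b, a stress gene of the list of p53 and DNA damage, was at 11.7, 13.8 and 9.44 FPKM with RTI and at 7.16, 7.98 and 6.32 FPKM without, a difference of 0.63 ± 0.20 with no overlap. Of 14 genes of that list 1 had an unadjusted p under 0.05, against 1.28% of all genes on the higher side, and the median was 0.11.

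Interferon-stimulated genes were on the higher side with RTI, most of all in RTI 2. Of 18 tested, 0 were called, 17 had a positive difference, 1 had an unadjusted p under 0.05 and 2 had all RTI libraries above all untreated ones. Over all genes 8753 of 16324 were positive, 1.28% were higher by p and 3.90% lay above. The median of the list was 0.33. Without RTI 1 it was 0.56, with 9 genes at an unadjusted p under 0.05 and 13 genes above all untreated libraries in both RTI libraries, against 1.52% and 7.39% of all genes in that fit. The mean log2 level of the list was 1.60, 2.53 and 1.92 in the RTI libraries and 1.63, 1.57 and 1.64 in the untreated mG-cKD libraries, and 1.51 to 1.60 in Ctrl. RTI 2 was thus the highest of the 6 and RTI 1 lay within the untreated range. In mG-cKO it was 2.03 to 2.66 with RTI and 2.03 to 2.83 without.

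Bst2, which encodes tetherin, a protein that holds budding virus on the cell, was at 2.30, 9.57 and 5.36 FPKM with RTI and at 3.17, 2.68 and 2.71 FPKM without. RTI 2 and 3 were above the untreated libraries and RTI 1 below them, with a difference of 0.65 ± 0.34, or 1.09 ± 0.28 without RTI 1. Ifit2, which binds viral RNA, was at 2.64, 3.68 and 2.42 FPKM with RTI and at 2.20, 0.486 and 1.54 FPKM without, a difference of 0.76 ± 0.26 with no overlap. Gbp2, an interferon-induced GTPase chosen after its values were seen, was at 0.605, 13.4 and 0.888 FPKM with RTI and at 0.772, 0.631 and 0.739 FPKM without, with RTI 2 alone high and a difference of 1.04 ± 0.58, or 1.60 ± 0.56 without RTI 1.

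Class I antigen presentation genes had 9 of 9 positive differences and a median of 0.43, or 0.44 without RTI 1. An unadjusted p under 0.05 was found for 2 genes, and 1 had all RTI libraries above all untreated ones. Over all genes these shares were 1.28% higher by p and 3.90% above. The mean log2 level of the list was 3.03, 3.54 and 2.75 with RTI and 2.68, 2.88 and 2.70 without, so RTI 3 lay within the untreated range. The transporter genes Tap1 and Tap2 carry peptides to class I molecules. Tap1 was at 1.43, 3.48 and 0.890 FPKM with RTI and at 0.840, 0.682 and 0.780 FPKM without, a difference of 0.63 ± 0.24 with no overlap. Tap2 was at 3.38, 3.84 and 1.72 FPKM with RTI and at 1.78, 1.61 and 1.497 FPKM without, a difference of 0.56 ± 0.19, and RTI 3 overlapped with the untreated libraries. Both transporter genes were highest in RTI 2. Of 6 class II genes, 0 had an unadjusted p under 0.05, and H2-Aa was at 1.18, 1.90 and 1.003 FPKM with RTI and at 0.984, 0.284 and 0.886 FPKM without.

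Sensors of nucleic acids and the enzymes that remove hybrids of RNA and DNA had medians near that of all genes. Over all genes 1.28% were higher and 0.950% lower at an unadjusted p under 0.05. Of 12 sensor genes, 1 had an unadjusted p under 0.05 and the median was 0.011, or -0.046 without RTI 1. Aim2, a sensor of DNA in the cytosol, was at 2.19, 0.906 and 0.8001 FPKM with RTI and at 0.481, 0.615 and 0.816 FPKM without, a difference of 0.44 ± 0.20, or 0.18 ± 0.16 without RTI 1, and RTI 3 overlapped with the untreated libraries. Ddx58, which encodes the RNA sensor RIG-I, was at 1.45, 1.59 and 1.52 FPKM with RTI and at 0.902, 0.814 and 1.37 FPKM without, a difference of 0.32 ± 0.19 with no overlap. Of 14 genes of hybrid removal, 1 had an unadjusted p under 0.05 and the median was 0.061, or 0.021 without RTI 1. That gene, Samhd1, lowers the nucleotide pool that reverse transcription needs, and was at 6.12, 8.16 and 4.15 FPKM with RTI and at 3.84, 3.54 and 5.40 FPKM without, a difference of 0.42 ± 0.18 with overlap. Retroelement silencing (16 genes) and retrovirus-derived host genes (12 genes) had medians of -0.021 (0.0040 without RTI 1) and 0.070, with 0 and 1 genes at an unadjusted p under 0.05, the 1 being Arc.

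Nucleoside inhibitors of reverse transcriptase must be taken up and phosphorylated to act, and the labels do not say whether RTI was one. Of 18 genes of nucleoside uptake and phosphorylation, 1 (Samhd1 again) had an unadjusted p under 0.05, 3 had all RTI libraries above all untreated ones, and the median was 0.13. Over all genes these shares were 1.28% higher by p and 3.90% above. Nt5c2, a nucleotidase, was at 16.5, 13.3 and 13.5 FPKM with RTI and at 12.9, 12.7 and 9.86 FPKM without, a difference of 0.27 ± 0.14 with no overlap, or 0.18 ± 0.15 without RTI 1. Of 18 genes of drug export and metabolism 0 had an unadjusted p under 0.05, and the median was 0.11, or 0.0017 without RTI 1. Slc22a8, an organic anion transporter of the blood-brain barrier, was at 2.58, 7.87 and 6.88 FPKM with RTI and at 7.04, 7.64 and 9.23 FPKM without, with RTI 1 low and a difference of -0.50 ± 0.27, or -0.094 ± 0.18 without RTI 1. Nucleoside analogues can disturb the copying of mitochondrial DNA. The 16 genes of mitochondrial DNA maintenance had 0 with an unadjusted p under 0.05 and a median of 0.050, or 0.026 without RTI 1, and the 13 protein genes of mitochondrial DNA had 0 and a median of -0.085, or -0.18 without RTI 1. mt-Nd1, a subunit of respiratory complex I, was at 3978, 3661 and 2762 FPKM with RTI and at 3349.6, 3880.0 and 5461 FPKM without.

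C4b (chromosome 17, 34728380 to 34743882, minus strand) was at 6.75, 2.25 and 1.90 FPKM with RTI and at 1.79, 2.33 and 1.66 FPKM without, and at 1.95, 1.75 and 1.96 FPKM in Ctrl. RTI 1 was above every untreated and Ctrl library, and RTI 2 and 3 lay within the range of the untreated libraries. The difference was 0.52 ± 0.27 (95% interval -0.056 to 1.10, limma adjusted p = 1). Without RTI 1, the library with the raised C4b, it was 0.077. In mG-cKO cortex C4b was at 14.8, 16.96 and 17.5 FPKM with RTI and at 21.02, 26.8 and 20.8 FPKM without, with no overlap between the groups, a difference of -0.45 ± 0.27. The difference of the RTI effects was 0.97 ± 0.38 for C4b. That value includes RTI 1, which was singled out with its raised C4b known, so it only describes these libraries. The 15 complement genes tested had a median of 0.028, with 9 positive differences, and without RTI 1 a median of -0.025 with 6.

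Genes that differ in mG-cKO cortex had a median difference with RTI in mG-cKD near that of all genes. In the age series of the study (P1, P7, P14 and P45), 151 genes were higher and 97 lower in mG-cKO than in Ctrl in limma at 1 age or more, and 108 and 94 of them were tested here. No mG-cKD library was used to choose the 151 and 97 genes. The 108 and 94 are those that passed the filter of 0.5 FPKM over the 6 mG-cKD libraries. Of the 108, 61 had a positive difference with RTI and the median was 0.043, or 0.029 without RTI 1, and 8753 of all 16324 genes had a positive difference. At an unadjusted p under 0.05, 0 were higher and 6 lower, Tdg-ps2 among them, and 8 had all RTI libraries above and 5 all below the untreated ones, against 1.28% higher and 0.950% lower by p, and 3.90% above and 3.29% below, of all genes. The median log2 level of the 108 genes was 1.98, 1.74 and 1.68 in the RTI libraries and 1.82, 1.78 and 1.75 in the untreated mG-cKD libraries. It was 1.66 to 1.70 in Ctrl and 2.76 to 3.06 in untreated mG-cKO cortex, so both mG-cKD groups lay near Ctrl.

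Fabp7, a fatty acid binding protein of radial glia and astrocytes, was 1 of those 6 genes, at 7.57, 18.6 and 24.8 FPKM with RTI and 43.4, 26.6 and 25.6 FPKM without, with RTI 1 lowest. Its difference was -0.97 ± 0.38, or -0.50 ± 0.34 without RTI 1, and it was picked with its values known. Of the 94 genes lower in mG-cKO, 49 had a positive difference, the median was 0.0061, and 2 were higher and 2 lower at an unadjusted p under 0.05. Without RTI 1, 64 were positive and the median was 0.068. The germline gene Mnd1, a factor of meiotic recombination that is high in mG-cKO, was at 0.981, 0.747 and 0.973 FPKM with RTI and at 0.533, 0.614 and 0.329 FPKM without, with no overlap, against 5.59, 26.6 and 4.64 FPKM in untreated mG-cKO.

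Cell type lists had 0 genes called, and several followed single libraries. Of 15 oligodendrocyte genes 5 had a positive difference and the median was -0.16, but without RTI 1 all 15 were positive and the median was 0.27. Gjc3, a connexin of oligodendrocytes, was at 9.68, 9.70 and 13.3 FPKM with RTI and at 8.75, 9.17 and 6.22 FPKM without, and the groups did not overlap, with a difference of 0.40 ± 0.20. In bulk cortex, fewer cells of a type and less RNA per cell cannot be told apart.

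The astrocyte list had 12 of 14 positive differences and a median of 0.17, or 0.047 without RTI 1. Gjb6, the astrocyte connexin 30, was at 41.8, 30.8 and 21.6 FPKM with RTI and at 24.5, 19.9 and 19.96 FPKM without, a difference of 0.49 ± 0.20, or 0.26 ± 0.19 without RTI 1, and RTI 3 overlapped with the untreated libraries. Homeostatic microglia genes had 4 of 15 positive differences and a median of -0.079, or -0.014 without RTI 1, and reactive microglia genes 6 of 10 and 0.051. Excitatory neuron genes had 3 of 14 positive differences and a median of -0.11, and inhibitory neuron genes 9 of 14 and 0.052. Cck, a neuropeptide, was at 188, 266 and 208 FPKM with RTI and at 284, 286 and 518 FPKM without, with no overlap. Its difference of -0.67 ± 0.37 was the lowest of the inhibitory list, most of whose members went the other way. Vascular genes had 2 of 12 positive differences and a median of -0.17, or -0.074 without RTI 1. Rgs5, a pericyte marker, was at 16.5, 19.4 and 22.6 FPKM with RTI and at 25.8, 23.9 and 23.1 FPKM without, a difference of -0.31 ± 0.12 with no overlap, or -0.20 ± 0.12 without RTI 1. In mG-cKO it was at 17.1, 19.07 and 17.4 FPKM with RTI and 22.4, 22.8 and 21.5 FPKM without, also lower in every RTI library.

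The remaining lists had 0 genes called. Their medians were 0.035 for cholesterol synthesis, 0.0074 for the nuclear respiratory chain, -0.0037 for the integrated stress response, -0.004 for oligodendrocyte precursors, -0.06 for synapses, -0.05 for reactive astrocytes, -0.12 for meninges, 0.08 for cytokines, 0.13 for leukocytes and 0.097 for germline genes. Without RTI 1 the median turned to 0.044 for meninges, with 7 of 9 positive differences against 2 of 9 with it, and to 0.16 for oligodendrocyte precursors. It was then 0.12 for the nuclear respiratory chain, -0.019 for the integrated stress response, -0.13 for reactive astrocytes, 0.015 for cytokines, 0.26 for leukocytes and 0.16 for germline genes. Without RTI 1 cholesterol synthesis, which oligodendrocytes use for myelin, had 16 of 18 positive differences and a median of 0.27, against 14 and 0.035 with it.

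Markers of other tissue moved between libraries beside these lists, and their part in the results was not tested. The 4 haemoglobin genes of the erythroid list had differences of 2.27 to 2.44, with a median of the 7 genes of 2.27. Untreated 1 and 3 were low and untreated 2 was within the range of the RTI libraries. Choroid plexus genes had 7 of 7 positive differences and a median of 0.45, and Ttr, the transthyretin gene chosen after its values were seen, was at 14.1, 1.46 and 279 FPKM with RTI and at 1.87, 5.49 and 3.18 FPKM without. RTI 3 alone was high. The summed FPKM of the 13 tested genes of other brain regions was 254, 255 and 224 with RTI and 121, 348 and 148 without, with 12 of 13 differences positive and a median of 0.32. Avp and Oxt of these genes passed the filter only through RTI 1. The summed FPKM of the immediate early list was 414, 602 and 520 with RTI and 354, 303 and 452 without, so untreated 2, which was high for blood and striatal genes, was the lowest of the 6 for these genes.

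**Figure D4:**
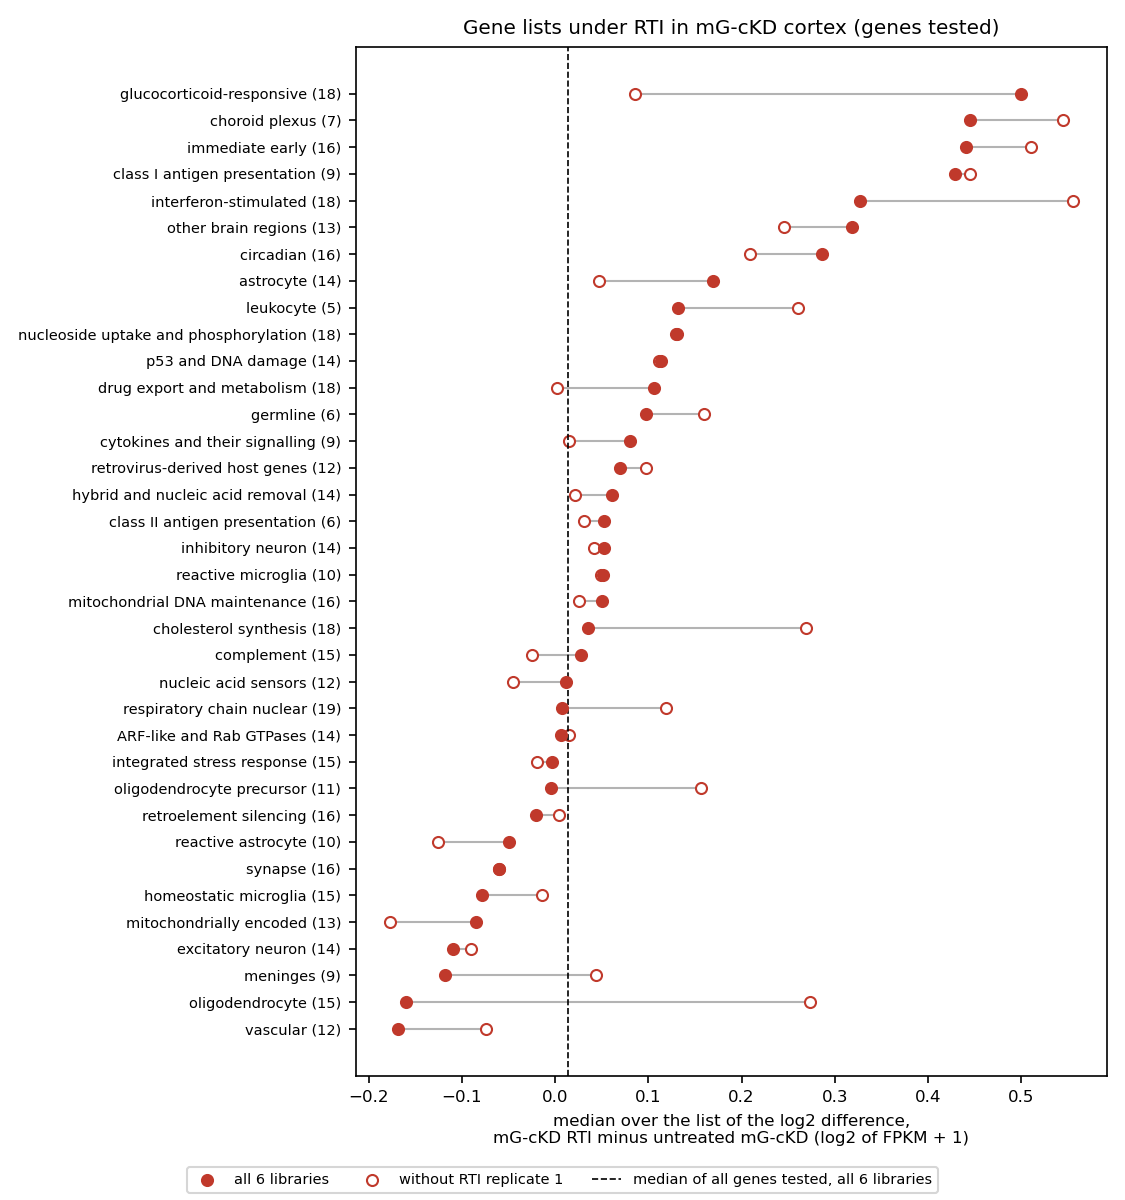
Median log2 difference, RTI minus untreated in mG-cKD, of 36 gene lists with all 6 libraries (filled) and without RTI 1 (open), with the number of genes tested. The dashed line is the median of all genes, 0.014. The erythroid list (2.27) and the sex-linked list, which follows the sex of the libraries, are left out. The glucocorticoid list moves to 0.086 and the oligodendrocyte list to 0.27 without RTI 1, and the immediate early list to 0.51.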

How the data were processed

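The authors deposited FPKM per gene for the 15 P21 cortex libraries. Per the submitters' processing notes the tools were Trim Galore 0.6.5, STAR 2.5.3a and featureCounts 2.0.4 with mm10, and the use of strand in counting is not given in the sources used here. At most 20.2% of low values fell within 0.05 of a whole read, so reads were not recovered, depth is unknown and no count test was run. All value columns were matched to samples. Genes were kept at a mean of 0.5 FPKM over the 6 mG-cKD libraries. A gene high in a single mG-cKD library could pass through it, while a gene high only in mG-cKO or Ctrl libraries could not. Log2 of FPKM with a pseudocount of 1 was tested with limma 3.58.1 (R 4.3.3), with 5 group means over 15 libraries, trend and robust eBayes and Benjamini-Hochberg adjustment over 16324 genes, and the code was tested on simulated data. Single genes also had an exact permutation test. Sex was read from Xist and Ddx3y.

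Genes were named by rule, namely C4b, Prm1, Rab37 and Arl4d, the 12 with the smallest p, the 8 with the smallest p without RTI 1, the 5 with the smallest p for the difference of the RTI effects, and up to 2 per list over 38 lists. Predicted genes (symbols with Gm and a number, or Rik) were left out of the choices by p for RTI in mG-cKD. The members and lists were chosen with earlier results of these data known. Sequences came from RefSeq (GRCm38.p6) and gene positions from GENCODE M21. Alternatives covered the pseudocount, the filter, scaling, the replicate block, the libraries in the fit, eBayes settings, array weights, sex and each library left out. Some genes that the rule names are not reported here.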

Additional observations from a re-analysis of the deposited data

How the results depend on the processing

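Leaving out each of the 6 mG-cKD libraries in turn gave 0 to 0 calls in limma for RTI and for the difference of the RTI effects. Genes with an unadjusted p under 0.05 numbered 214 without untreated 3 and 583 without RTI 2, against 364 with all. With no filter 1 gene was called for RTI, higher (Olfr277-ps1, adjusted p = 0.0357), and 1 for the difference of the effects (Krt15, 0.0227), both by their calls in limma. The fit of the 6 mG-cKD libraries alone called 2 genes, both lower, Baiap2l1 (9.2e-04) and Tdg-ps2 (0.0035). With the replicate block in that fit it also called these 2 (0.0039 and 0.0318). The replicate block over all 15 libraries gave 0 calls and 526 genes at an unadjusted p under 0.05. Same-numbered libraries deviated from their group means with correlations of 0.12, 0.26 and 0.019. RTI 1 and RTI 2 correlated best with the untreated library of their own number, and RTI 3 with untreated 1 (0.18). Untreated replicate 2 had the highest Hbb-bs in mG-cKD, mG-cKO and Ctrl, at 195, 167 and 161 FPKM. The labels state no pairing, and whether the numbers mark pairs or a shared handling of libraries was not tested. C4b ranged over 0.077 without RTI 1 to 0.79 without RTI 3, with limma adjusted p of 0.933 to 1, and was 0.52 with the block.

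Of 1592 values for the 90 other named genes under 18 settings, 1565 kept sign and side, 4 passed only with the mG-cKD libraries alone, and 23, in 12 genes, turned sign. With the female libraries alone, added after seeing the data, these were Cp -0.020, Stx1a 0.0087, Gm28035 -0.058, Prm1 0.0070, S100a9 -0.040 and Cd74 -0.065, and with array weights Gm20634 0.013, Cd74 -0.0089, Ddx3y -0.32 and Uty -0.20. Over the fits with 1 library left out, S100a9 ranged over -0.23 (without RTI 1) to 1.10, Prm1 -1.18 to 0.29 (without RTI 1), Aspg -0.52 to 0.043 (without RTI 3), Gm20634 -0.26 to 0.019 (without untreated 3), mt-Atp6 -0.42 to 0.0030 (without untreated 3), Cd4 -0.00068 (without untreated 1) to 0.65, Ddx3y -0.84 (without RTI 1) to 1.14 and Uty -0.47 (without RTI 1) to 0.59. Ddx3y was also -0.13 and Uty -0.11 and -0.12 without untreated 1 and without untreated 3, and Cd74 -0.025 without untreated 2. Among list medians those of the oligodendrocyte (0.27), glucocorticoid-responsive (0.086) and cholesterol synthesis (0.27) lists moved without RTI 1 by more than the median standard error of their genes. Others moved by less than that, among them sex-linked (-0.73), interferon-stimulated (0.56) and meninges (0.044). Sex as a term, also added after seeing the data, gave 0 calls. The cause of these changes was not tested. With unknown depth and 3 libraries a group, the median 95% interval reached 0.376 in log2 to either side.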

Other observations

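Without RTI 1 the smallest p of all genes belonged to Gm49510, a transcript on chromosome 15 whose annotated span overlaps Sh3bp1 and Pdxp. It was at 1.40, 24.8 and 17.7 FPKM in the RTI libraries of mG-cKD and at 1.56, 1.17 and 0.417 FPKM in the untreated ones, so RTI 2 and 3 were high and RTI 1 lay with the untreated libraries. Its difference was 2.40 ± 0.75 with all 6 libraries and 3.47 ± 0.48 without RTI 1, with a limma adjusted p of 0.127. Sh3bp1, which encodes a GTPase-activating protein for Rac, was at 6.02, 1.999 and 1.80 FPKM with RTI and at 4.51, 4.34 and 8.37 FPKM without, and Pdxp, a pyridoxal phosphatase, was at 62.7, 48.8 and 40.0 FPKM with RTI and at 64.5, 73.6 and 87.6 FPKM without. These 3 genes were chosen after their values were seen, and reads of overlapping genes cannot be assigned with certainty.

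In RTI 1 3 of 10 reactive astrocyte genes lay above all 14 other P21 libraries by at least 0.5 in log2, against 111 of all 16324 genes. Of these 3, Lcn2 is also 1 of the 10 such genes of the glucocorticoid list, and it passed the filter only through RTI 1. Lcn2, which encodes the iron-binding protein lipocalin 2, was at 11.46, 0.615 and 0 FPKM with RTI and at 0.240, 0.438 and 0.624 FPKM without, chosen after its values were seen. Cp, the copper-binding ceruloplasmin, was at 6.62, 2.77 and 2.58 FPKM with RTI and at 2.67, 2.51 and 2.78 FPKM without. Etnppl, an astrocyte enzyme of phospholipid breakdown chosen after its values were seen, was at 19.3, 4.07 and 2.02 FPKM with RTI and at 2.04, 3.61 and 2.08 FPKM without, with RTI 1 high.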
